A study of Mus musculus with 8 samples.

Results

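Dusp4, Dusp6, Spry1, Spry2, Spry4, Spred1, Etv4, Etv5, Phlda1 and Ier3 are genes whose transcription rises with signaling through the RAS, RAF, MEK and ERK kinase cascade, and several of their products restrain it. The 10 genes were taken by symbol from the 21878 genes of a count table of mouse liver RNA sequencing, and all 10 were among the 14726 genes with enough reads to be tested. The study addressed hepatocyte loss of Nfib, which encodes a nuclear factor I transcription factor, in liver tumors. Liver RNA of C57BL/6 mice was sequenced in 8 libraries, and every library carries the same labelled age of 14 to 16 days. Wild-type mice gave 3 tumors, numbered 1, 2 and 3, and 2 normal livers, numbered 2 and 3. Mice labelled nfib-/- gave 2 tumors, numbered 2 and 3, and 1 normal liver, numbered 3. These carried floxed Nfib alleles (f/f) and Alb-Cre, a Cre recombinase under the albumin promoter that is active in hepatocytes. Cells in which the recombinase was never active keep the gene. The labels name no agent that induced the tumors and do not say whether the wild-type mice carried floxed alleles. They do not state that libraries came from separate animals, so p-values measure only the spread between these samples.

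In this cascade a growth factor receptor activates RAS, RAF phosphorylates MEK, and MEK phosphorylates ERK, which then drives transcription through ETS and AP-1 factors. Dusp4 and Dusp6 encode phosphatases that remove the activating phosphates from ERK, Sprouty and Spred proteins act upstream of ERK on RAS and RAF, and Etv4 and Etv5 are ETS factors that carry part of the transcriptional output. Hepatocytes receive this signal mainly through the EGF, FGF and HGF receptors, and the pathway is often active in liver cancer. Transcript levels were measured here, and phosphorylation of ERK was not.

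The promoter sequences of Dusp6, Spry1 and Ier3 are shown because the 3 genes took different courses in the second wild-type tumor. Each runs from 250 bases upstream to the base before the annotated start of the gene, 5′ to 3′ on the plus strand, in RefSeq's GRCm38.p6 build. Capitals mark each GGAA, the core letters of an ETS site, or its reverse complement TTCC. The Dusp6 stretch lies at chr10:99262981-99263230 and holds 6 matches, the Ier3 stretch at chr17:35821463-35821712 holds 5, and the Spry1 stretch at chr3:37639697-37639946 holds 1.
Dusp6: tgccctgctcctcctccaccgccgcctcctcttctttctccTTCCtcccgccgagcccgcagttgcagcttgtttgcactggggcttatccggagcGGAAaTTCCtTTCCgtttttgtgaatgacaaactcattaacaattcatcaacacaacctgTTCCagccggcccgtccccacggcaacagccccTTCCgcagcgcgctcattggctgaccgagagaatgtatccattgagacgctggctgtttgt
Ier3: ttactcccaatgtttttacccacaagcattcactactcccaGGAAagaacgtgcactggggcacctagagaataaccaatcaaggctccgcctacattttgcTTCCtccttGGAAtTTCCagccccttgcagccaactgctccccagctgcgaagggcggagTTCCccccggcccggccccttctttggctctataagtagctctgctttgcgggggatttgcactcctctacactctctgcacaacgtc
Spry1: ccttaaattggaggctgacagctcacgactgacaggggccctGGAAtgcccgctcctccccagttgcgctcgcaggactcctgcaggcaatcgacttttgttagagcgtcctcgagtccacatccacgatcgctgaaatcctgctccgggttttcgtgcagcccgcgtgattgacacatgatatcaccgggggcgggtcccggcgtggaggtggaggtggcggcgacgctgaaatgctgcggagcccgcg

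Stretches of 6 of the 10 genes were searched, and 5 of these held GGAA on either strand. Of those not shown, Spred1 held 4 matches, Spry2 held 3 and Etv5 held 0. Whether the matches bear on the levels was not tested. A stretch was not available for each of the 10 genes, and the search for them did not cover every chromosome. These counts are for the genes searched only. The core was present in 93.4% of 27025 mouse promoter stretches of the same length, with a median of 3 matches. The longer letters CCGGAA, which contain that core, were in 12.2% of them, the AP-1 letters TGANTCA in 6.87%, the cyclic AMP response element TGACGTCA in 1.62% and the serum response element in 1.4%. Both strands were searched, and none of these 4 was found in the 6 stretches.

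Library totals ran from 11912549 counts in wild-type normal 2 to 19965842 in wild-type tumor 2. Levels below are CPM, counts divided by library size after TMM scaling, which sets the libraries to a common level over most genes. Nfib, the targeted gene, was at 46.1 to 77.9 CPM in the wild-type tumors, 87.6 and 79.4 CPM in the wild-type normal livers, 84.1 and 82.0 CPM in the tumors labelled knockout and 85.4 CPM in the normal liver labelled knockout. It was thus not lower under the knockout label (log2 fold change 0.27 ± 0.19 SE, edgeR adjusted p = 0.748), and counts over the whole gene do not resolve a deleted exon. Genotype names are therefore those of the labels, and any direction between genotypes is a direction between labels. Hepatocyte markers were abundant as a sum, with 6 of 6 above 0 and a summed level of 64015 to 181881 CPM. Most of this was Alb, at 42636 to 156443 CPM. Of the 6, only Cyp2e1 had its lowest level in wild-type tumor 2, at 68.6 CPM against 1999 to 7120 CPM elsewhere. Other tissues entered some libraries. The 8 skeletal muscle genes summed to 1902 CPM in the second knockout tumor and 645 CPM in the knockout normal liver. They summed to 96.6 CPM in wild-type tumor 1 and to 1.46 to 11.9 CPM elsewhere. In knockout tumor 2, 8 squamous epithelial genes summed to 453 CPM, against 1.05 to 15.2 CPM elsewhere. In such bulk RNA, fewer cells of a type and less RNA per cell cannot be told apart.

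Per kilobase of gene, the members differed widely. Dusp6 had the highest mean FPKM over the 8 libraries, 26.4, followed by Phlda1 at 21.4 and Ier3 at 10.02. Spry1, Spred1 and Spry4 lay close together at 3.80, 3.79 and 3.26 FPKM, Dusp4 at 2.65, Spry2 at 1.17 and Etv5 at 1.07. Etv4 was lowest at 0.483 FPKM, and its 5 to 47 counts per library carry the largest counting error of the 10.

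One library stood out for the members. Wild-type tumor 1 had the highest level of the 8 libraries for 8 of the 10 genes, which were Dusp6, Spry1, Spry2, Spry4, Spred1, Etv4, Etv5 and Phlda1, while 8.5% of all tested genes were highest there. The other two, Dusp4 and Ier3, were highest in wild-type tumor 2, where 30.4% of all tested genes peaked. The count for tumor 1 depended on the scale: with CPM by library total and with FPKM it was 5 of 10, since Spry2 and Etv5 were then highest in wild-type normal 2 and Phlda1 in knockout tumor 2. Dusp6, Spry1, Spry4, Spred1 and Etv4 were highest in wild-type tumor 1 on all 3 scales. The mean over the 10 genes of the log2 CPM centred per gene was 0.90 in wild-type tumor 1, and between -0.38 and 0.15 in the other 7 libraries.

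**Figure D1:**
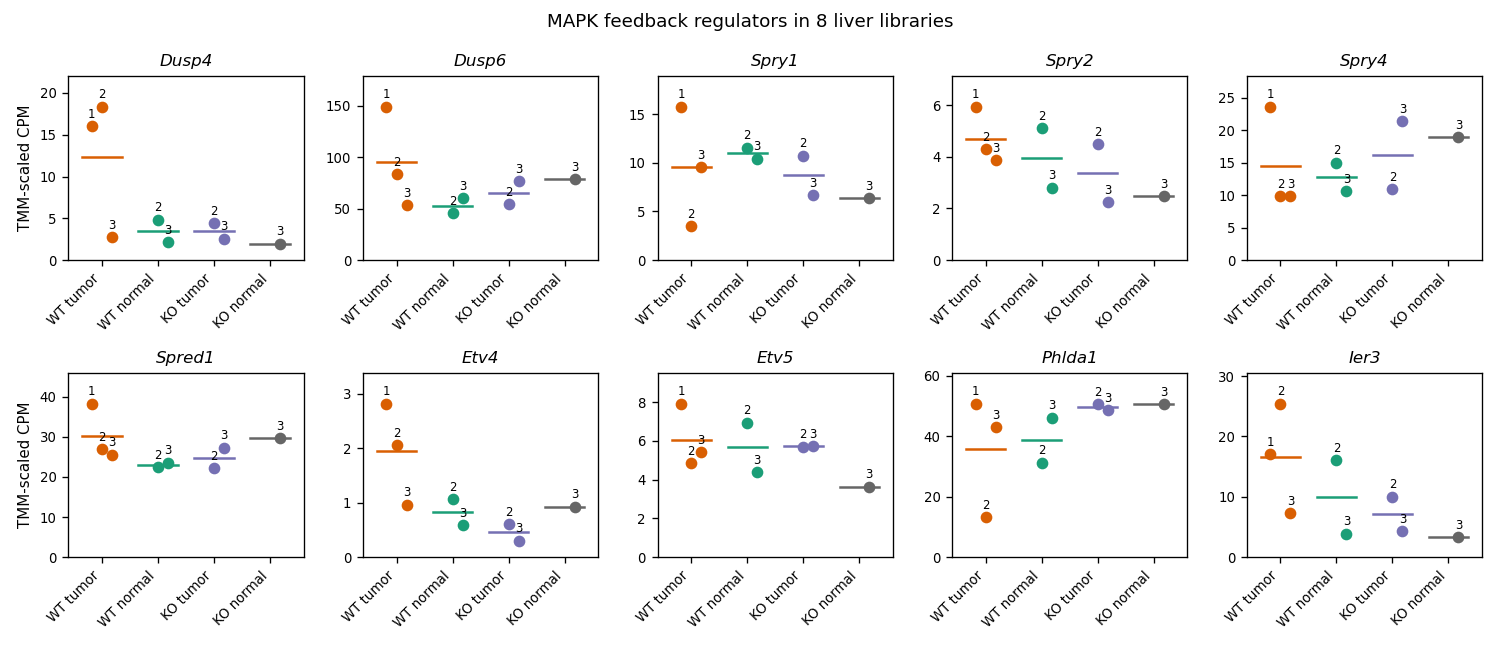
Level of each of the 10 genes in each library in TMM-scaled CPM. Each numbered point is 1 library, placed by group, and lines mark group means. Wild-type tumors 1 and 2 are high for Dusp4 and Etv4. For Dusp6 tumor 1 is high and tumor 2, at 83.3 CPM, is close to knockout normal 3, at 78.7 CPM. For these genes tumor 3 lies with the normal livers.

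Of the ERK phosphatases, Dusp4 separated the wild-type tumors more widely than Dusp6. Dusp4, a nuclear phosphatase, was at 16.0, 18.4 and 2.72 CPM in wild-type tumors 1, 2 and 3 and at 4.82 and 2.17 CPM in wild-type normal livers 2 and 3. It was at 4.44 and 2.56 CPM in knockout tumors 2 and 3 and at 1.97 CPM in knockout normal 3. Tumors 1 and 2 were thus 6.07-fold and 6.96-fold above the median of the other 6 libraries, and tumor 3 lay between the normal livers. Dusp6, a cytoplasmic phosphatase specific for ERK, was at 149, 83.3 and 53.1 CPM in wild-type tumors 1, 2 and 3 and at 45.5 and 59.9 CPM in the wild-type normal livers. It was at 54.2 and 76.9 CPM in knockout tumors 2 and 3 and at 78.7 CPM in knockout normal 3. Tumor 1 stood well above the rest at 2.61-fold the median of the other 6, whereas tumor 2 was close to knockout normal 3.

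The Sprouty and Spred genes, which encode inhibitors of RAS and RAF activation, were raised less and did not share a pattern beyond tumor 1. Spry1 was at 15.8, 3.50 and 9.54 CPM in wild-type tumors 1, 2 and 3, at 11.6 and 10.4 CPM in the wild-type normal livers, at 10.7 and 6.70 CPM in knockout tumors 2 and 3 and at 6.34 CPM in knockout normal 3. Its lowest level was in wild-type tumor 2, at 0.351 of the median of the 6 others, and 29.9% of all tested genes were lowest there, so that tumors 1 and 2 lay at opposite ends. Spry2 ranged narrowly, from 2.26 CPM in knockout tumor 3 to 5.94 CPM in wild-type tumor 1, with wild-type normal 2 at 5.11 CPM close behind.

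Spry4 was at 23.6, 9.90 and 9.84 CPM in wild-type tumors 1, 2 and 3, at 15.0 and 10.6 CPM in the wild-type normal livers, at 10.96 and 21.4 CPM in knockout tumors 2 and 3 and at 18.9 CPM in knockout normal 3. The 3 high libraries were wild-type tumor 1 and the pair numbered 3 under the knockout label. In that pair 8 neutrophil markers summed to 285 and 262 CPM, against 19.7 to 46.7 CPM in the other 6 libraries, and their part in the Spry4 level was not tested. Spred1, which brings the RAS inactivator neurofibromin to the membrane, was at 38.3, 27.0 and 25.6 CPM in wild-type tumors 1, 2 and 3 and at 22.5 and 23.6 CPM in the wild-type normal livers. It was at 22.2 and 27.3 CPM in knockout tumors 2 and 3 and at 29.7 CPM in knockout normal 3. On this scale the 3 wild-type tumors were all above both wild-type normal livers, and both knockout tumors were below the knockout normal liver. By library total, however, wild-type tumor 2 was at 24.3 CPM and wild-type normal 2 at 26.6 CPM, and their order turned in the same way with FPKM.

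Both ETS genes were expressed at low levels. Etv4 was at 2.82, 2.06 and 0.966 CPM in wild-type tumors 1, 2 and 3, at 1.06 and 0.585 CPM in the wild-type normal livers, at 0.603 and 0.305 CPM in knockout tumors 2 and 3 and at 0.924 CPM in knockout normal 3. All 3 wild-type tumors were above both knockout tumors, but tumor 3 rested on 16 counts. Etv5 ran from 3.63 CPM in knockout normal 3 to 7.92 CPM in wild-type tumor 1, with wild-type normal 2 next at 6.95 CPM, so its levels in tumor and normal liver overlapped.

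Phlda1 and Ier3 moved apart in wild-type tumor 2. Phlda1, a protein with a pleckstrin homology-like domain, was at 50.7, 13.2 and 42.9 CPM in wild-type tumors 1, 2 and 3, at 31.2 and 46.1 CPM in the wild-type normal livers, at 50.5 and 48.5 CPM in knockout tumors 2 and 3 and at 50.5 CPM in knockout normal 3. Tumor 2 was alone at the low end, at 0.280 of the median of the 6 others, and tumor 1 was level with the knockout libraries. Ier3, an immediate early gene linked to cell survival and stress, was at 17.1, 25.4 and 7.30 CPM in wild-type tumors 1, 2 and 3 and at 16.1 and 3.86 CPM in the wild-type normal livers. It was at 10.03 and 4.27 CPM in knockout tumors 2 and 3 and at 3.33 CPM in knockout normal 3. Tumor 2 was 4.39-fold above the median of the 6 others, but wild-type normal 2 was nearly level with tumor 1.

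**Figure D2:**
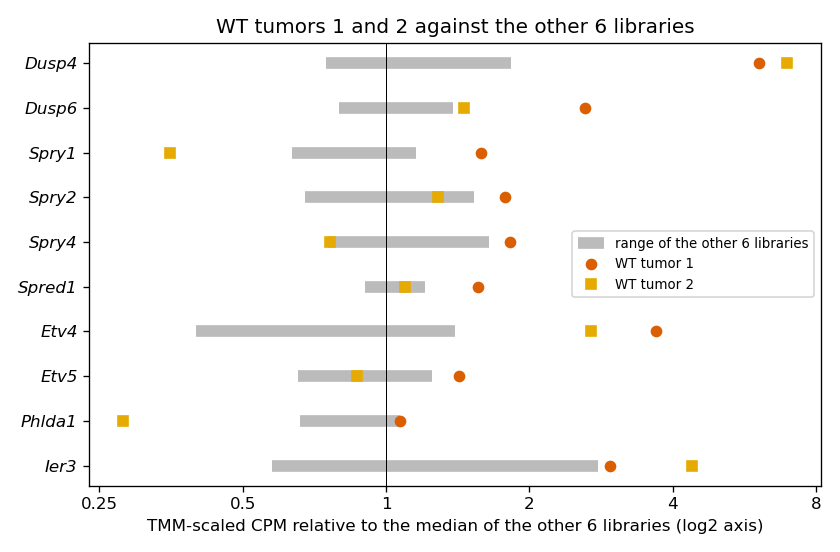
Fold of each of the 10 genes in wild-type tumors 1 and 2 over the median of the other 6 libraries, on a log2 axis, from TMM-scaled CPM, with grey bars for the range of those 6. Tumor 1 lies above 1-fold for each gene, from 1.07-fold for Phlda1 to 6.07-fold for Dusp4, whereas tumor 2 runs from 0.280-fold for Phlda1 to 6.96-fold for Dusp4.

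Wild-type tumors 1 and 2 were set apart here after their values were seen, so the following counts are descriptions. Tumor 1 was above each of the other 6 libraries for 10 of 10 members, where the share over all tested genes was 21.6%, but Spry2, Etv5, Phlda1 and Ier3 were not above all 6 with CPM by library total or with FPKM. Tumor 2 was above all 6 for 4 members, Dusp4, Dusp6, Etv4 and Ier3, where the share over all tested genes was 33.7%. It was below all 6 for Spry1 and Phlda1, where that share was 31.6%. On the other 2 scales Dusp6 in tumor 2 was no longer above all 6, and Spry4 was then also below them. The counts for tumor 2 were therefore near the background in both directions.

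Some cell markers moved with these 2 libraries. The 3 measured oncofetal markers, Afp, Igf2 and Gpc3, summed to 1028 CPM in tumor 1 and 8114 CPM in tumor 2, against 8.14 to 256 CPM elsewhere, and none was at 0 in any library. Afp, the fetal form of the serum albumin family, was at 573 and 2345 CPM in them and at no more than 17.5 CPM in the other 6. Igf2 was high in tumor 2 only, at 5758 CPM, with 13.8 CPM in tumor 1 and 3.74 to 190 CPM elsewhere. Gpc3 was high in tumor 1 only, at 441 CPM, with 11.2 CPM in tumor 2 and 2.87 to 49.0 CPM elsewhere. The 8 proliferation genes summed to 66.4 and 73.5 CPM, against 20.6 to 38.2 CPM elsewhere. In tumor 2, 8 endothelial genes summed to 185 CPM against 397 to 782 CPM elsewhere. There, 7 Kupffer cell and macrophage genes summed to 86.4 CPM against 179 to 557 CPM, and all genes of both lists were above 0 in every library. Not every gene was low: endothelial Pecam1 and Cdh5, at 37.5 and 53.4 CPM in tumor 2, lay within the range of the other libraries. So did Adgre1 and Cd68 of the macrophage list, at 10.7 and 24.6 CPM. The remaining genes of both lists were lowest in tumor 2. The 8 skeletal muscle genes summed to 96.6 CPM in tumor 1 and 1.67 CPM in tumor 2. The part of these cells in the low Spry1 and Phlda1 levels of tumor 2, or in the high levels of tumor 1, was not tested.

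Among wild-type tumors against wild-type normal livers, 8 of 10 members had a higher fitted level in tumor, with a median log2 fold change of 0.32 against 0.0030 over all tested genes, of which 50.3% were higher. No member passed the threshold of an edgeR adjusted p of 0.05, and none passed at an unadjusted p under 0.05. Of all tested genes, 0 passed the adjusted threshold (0%) and 341, or 2.32%, had an unadjusted p under 0.05. Dusp4 had the largest difference, with 12.4 ± 8.44 CPM (SD, n = 3) in tumor and 3.49 ± 1.88 CPM (SD, n = 2) in normal liver and a log2 fold change of 1.83 ± 0.85 (SE, edgeR adjusted p = 0.845). Etv4 differed by 1.24 ± 0.70, Dusp6 by 0.85 ± 0.45 and Ier3 by 0.74 ± 0.77 on the log2 scale. Spred1 was the one member whose libraries did not overlap, 30.3 ± 6.96 CPM (SD, n = 3) in tumor and 23.0 ± 0.786 CPM (SD, n = 2) in normal liver, and its log2 difference was 0.39 ± 0.23. With library totals or FPKM its libraries overlapped, as given above. A gap of this kind in favour of tumor was found for 6.5% of all tested genes. The other 5 members lay between -0.19 ± 0.58 for Spry1 and 0.25 ± 0.47 for Spry2. Single libraries moved these differences by over 1.5 times: without wild-type tumor 1 the log2 difference was 0.38 for Dusp6 and 0.20 for Spred1, and without wild-type tumor 2 it was 0.32 for Ier3. Ier3 was at 2.09 without wild-type normal 2 and at 0.052 without wild-type normal 3. The median dropped to 0.13 when either wild-type tumor 1 or wild-type normal 3 was left out and was 0.57 without wild-type normal 2.

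Knockout tumors were compared with wild-type tumors to address the deletion in tumor tissue. In the libraries labelled knockout, 8 of 10 members had a lower fitted level, with a median log2 fold change of -0.38 against -0.0037 over all tested genes, of which 50.4% were lower. No member passed the adjusted threshold, and neither did any tested gene (0%), while 430 genes, or 2.92%, had an unadjusted p under 0.05 in edgeR. Etv4 was the only member among those. Its mean was 0.454 ± 0.211 CPM (SD, n = 2) in knockout tumors and 1.95 ± 0.932 CPM (SD, n = 3) in wild-type tumors. Its log2 fold change was -2.08 ± 0.73 (SE, edgeR unadjusted p = 0.0275, adjusted p = 0.888), and its libraries did not overlap, as for 7.56% of all tested genes in that direction. Dusp4 differed by -1.82 ± 0.85 and Ier3 by -1.21 ± 0.79 on the log2 scale, but wild-type tumor 3 lay among the knockout tumors for both genes. Dusp6 averaged 95.1 ± 49.0 CPM (SD, n = 3) in wild-type tumors and 65.6 ± 16.1 CPM (SD, n = 2) in those labelled knockout, and differed by -0.54 ± 0.44. Without wild-type tumor 1 the log2 difference of Dusp6 was -0.066, and leaving out wild-type tumor 3 gave -0.82. Leaving out knockout tumor 2 gave -0.32 for this gene, and leaving out knockout tumor 3 gave -0.83. Ier3 ranged from -1.97 without knockout tumor 2 to -0.74 without knockout tumor 3, and was -0.80 without wild-type tumor 2. The remaining 6 members lay between -0.47 ± 0.47 for Spry2 and 0.48 ± 0.52 for Phlda1. The median was -0.083 without wild-type tumor 1, so its size rested largely on that library. Skeletal muscle and squamous markers were high in knockout tumor 2 and neutrophil markers in knockout tumor 3, as given above, and their part in these values was not tested.

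The remaining contrasts gave no call either. With both genotypes together, 9 of 10 members were higher in tumor than in normal liver, where 52.2% of all tested genes were. Dusp4 differed by 1.47 ± 0.66 on the log2 scale and the median was 0.30, or 0.11 when either wild-type tumor 1 or wild-type normal 3 was left out. In this contrast 0 genes were called (0%) and 259, or 1.76%, had an unadjusted p under 0.05. With both tissues together, 8 of 10 members were lower under the knockout label, where 52.8% of all tested genes were. The median log2 difference was -0.32, and -0.099 without wild-type tumor 1. Dusp4 differed by -1.46 ± 0.66 and Ier3 by -1.34 ± 0.60, each with an edgeR adjusted p of 0.714. Here 0 genes were called (0%) and 1009, or 6.85%, had an unadjusted p under 0.05. The difference between the tumor effects of both genotypes was below 0 for 5 members, where 48.8% of all tested genes were, with 0 genes called (0%) and 47, or 0.319%, at an unadjusted p under 0.05. No member had an unadjusted p under 0.05 in any of the 3, where the lone knockout normal liver was taken to vary like the other groups. The contrasts share libraries and are not independent of each other. DESeq2 called 4 genes for knockout against wild-type tumor, 15 for wild-type tumor against normal liver, 5 and 45 in the additive contrasts and 0 for the difference of effects, and limma-voom called 0 in each. No member was among them.

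**Figure D3:**
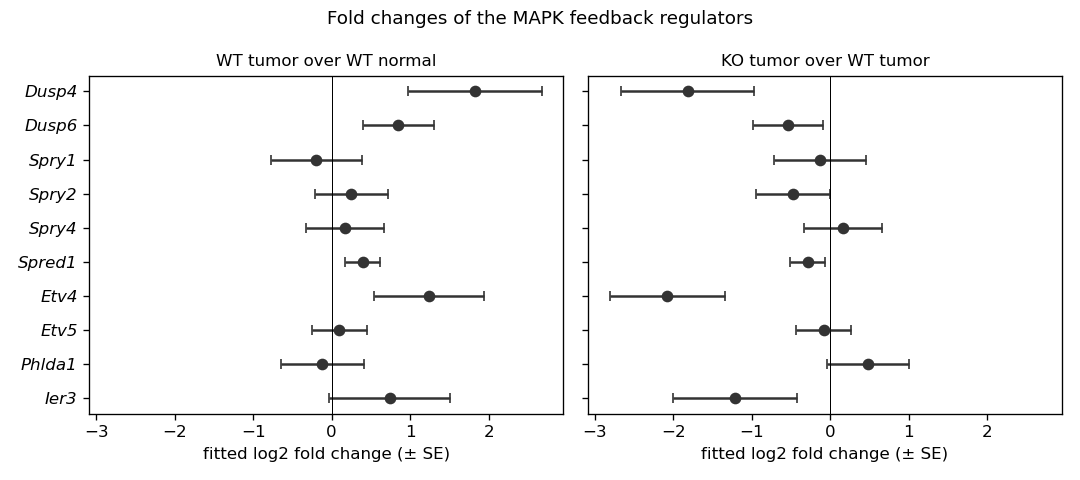
Fitted log2 fold changes of the 10 genes, with bars of 1 standard error, for wild-type tumor over wild-type normal liver and for knockout tumor over wild-type tumor. Dusp4, at 1.83 and -1.82, and Etv4, at 1.24 and -2.08, lie farthest from 0 in both panels, which share the wild-type tumors.

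The rest of the pathway was read from 8 further lists, and none of their tested genes passed the threshold in any contrast with edgeR, DESeq2 or limma-voom. In wild-type tumor against normal liver, 6 of 8 other MAPK phosphatases and 7 of 9 other ERK-dependent transcripts had a higher fitted level, with medians of 0.46 and 0.75. In knockout against wild-type tumor, 6 of 8 phosphatases and 5 of 9 ERK-dependent transcripts had a lower one, with medians of -0.51 and -0.46. Over all tested genes, 50.3% were higher in wild-type tumor than in normal liver, with a median of 0.0030. In knockout against wild-type tumor 50.4% of them were lower, with a median of -0.0037. Several of the list counts below lie near these shares. Of the 13 immediate early genes, 7 were higher in wild-type tumor than in normal liver and 7 were lower in knockout than in wild-type tumor. All 19 measured genes of the cascade from adaptor to ERK were tested, and 10 of them were higher in wild-type tumor, with a median of 0.080. Of the receptors, 4 of 13 were higher in wild-type tumor than in normal liver and 7 of 13 in knockout than in wild-type tumor, and of the ligands 6 of 12 in each contrast. The 3 tested Sprouty, Spred and PEA3 genes outside the members had 1 higher in each contrast. The 10 other brakes and repressors had medians of 0.11 and -0.051 in the same contrasts.

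Other feedback genes and ERK outputs repeated parts of the pattern across libraries. Dusp5, a nuclear phosphatase for ERK, was at 12.8 and 16.2 CPM in wild-type tumors 1 and 2 and at 1.17 to 3.84 CPM elsewhere. Its log2 difference in knockout against wild-type tumor was -1.97 ± 0.81 (SE, edgeR unadjusted p = 0.0487, adjusted p = 0.888). Dusp7, a cytoplasmic ERK phosphatase, was at 12.5 and 11.2 CPM in tumors 1 and 2 and at 6.41 to 8.93 CPM elsewhere. On this scale both genes were thus highest in the same 2 libraries as Dusp4. By library total, Dusp7 was at 10.58 CPM in wild-type normal 2, above 10.07 CPM in tumor 2, and the order was the same with FPKM. Spred2 was at 36.4 CPM in tumor 1 and 14.1 to 23.1 CPM elsewhere, and Spred1 was highest in the same library. Spred3 did not follow it, at 1.62 CPM in tumor 1 and 1.29 to 2.77 CPM elsewhere, and Etv1, the remaining ETS factor of the PEA3 group, was at no more than 1.27 CPM in any library.

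Ccnd1, the cyclin D1 gene, was at 192, 146 and 122 CPM in wild-type tumors 1, 2 and 3 and at 50.3 and 128 CPM in the wild-type normal livers. It was at 101 and 51.8 CPM in knockout tumors 2 and 3 and at 40.6 CPM in knockout normal 3. On this scale wild-type tumors 1 and 2 lay above both wild-type normal livers, and wild-type tumor 3 lay between them. Epha2, an ephrin receptor, was highest in tumor 1 at 41.8 CPM against 20.4 to 32.1 CPM elsewhere. Myc was highest in tumor 2 at 34.8 CPM, with 13.3 CPM in tumor 1 and 4.27 to 10.9 CPM elsewhere. Errfi1, an EGF receptor inhibitor, went the other way in tumor 2, at 323 CPM against 952 to 1581 CPM elsewhere. Among immediate early genes, Egr1 was at 249 and 203 CPM in tumors 1 and 2, at 220 CPM in knockout tumor 2 and at 89.6 to 168 CPM elsewhere. With CPM by library total, Egr1 was at 199 CPM in wild-type normal 2, above 182 CPM in tumor 2. Jun, Junb and Zfp36 were highest in knockout tumor 2, tumor 1 and knockout tumor 2, respectively, and gave no common order. Dusp1, an immediate early phosphatase of several MAP kinases, was lowest in tumor 2 at 47.4 CPM against 105 to 143 CPM elsewhere.

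Ligands and receptors of the EGF family differed by library. The following ligands were picked after their values were seen. Tgfa, a ligand of the EGF receptor, was at 92.5 CPM in tumor 1 and 15.3 to 24.0 CPM in the other 7 libraries, or 5.07-fold over the median of the 6 that exclude tumor 2. Hbegf was at 8.16 and 15.1 CPM in tumors 1 and 2 and 1.66 to 7.09 CPM elsewhere, and Btc at 7.80 and 11.8 CPM against 0.527 to 3.12 CPM. With CPM by library total, however, Hbegf was at 8.39 CPM in wild-type normal 2, above 7.73 CPM in tumor 1. Areg was at 10.7 CPM in tumor 2, 1.5 CPM in tumor 1 and no more than 0.244 CPM elsewhere. Tumor 1 was thus set apart from tumor 2 by Tgfa and tumor 2 from tumor 1 by Areg. Egfr was highest in wild-type normal 2 at 519 CPM and at 127 to 375 CPM elsewhere, Erbb3 ranged from 40.3 to 73.5 CPM and Insr from 127 to 183 CPM. Of the core cascade genes, Grb2 ran from 47.5 to 59.8 CPM and Map2k2 (MEK2) from 101 to 147 CPM. Mapk3 (ERK1) ran from 46.5 to 65.6 CPM, and tumors 1 and 2 were the 2 highest on this scale. By library total, Mapk3 was highest in wild-type normal 2, at 61.95 CPM against 61.64 and 59.10 CPM in tumors 1 and 2. Among brakes, Pebp1, an inhibitor of RAF, was lowest in tumor 2 at 72.6 CPM, and Cic, a repressor released by ERK, ran from 44.2 to 57.5 CPM.

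**Figure D4:**
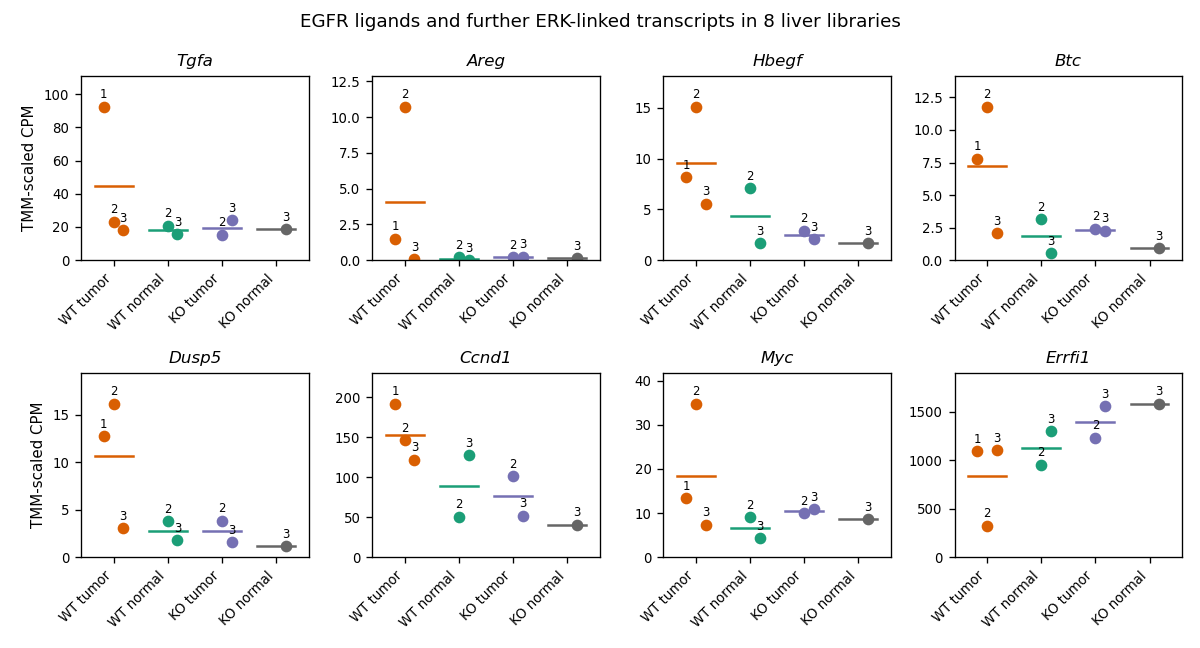
Levels of 4 EGF receptor ligands (Tgfa, Areg, Hbegf, Btc) and of Dusp5, Ccnd1, Myc and Errfi1 in TMM-scaled CPM, with 1 numbered point per library, placed by group, and lines at group means. Tgfa is high in wild-type tumor 1, at 92.5 CPM, and Areg, Myc and low Errfi1 mark wild-type tumor 2.

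The authors' deposited table for wild-type tumor 1 sets that library against a wild-type normal library numbered 1 in its header, which is not analysed here, whereas the label of that table names knockout tumor 2. It lists genes past a fold of 2 and an unadjusted p of 0.05, 658 of them higher in the tumor, or 3.01% of the count table. Of the 10 genes, 3 were listed in the authors' deposited table, all higher: Dusp4 at 4.27-fold (adjusted p = 0.0752), Ier3 at 3.06-fold (adjusted p = 0.306) and Dusp6 at 2.002-fold (adjusted p = 0.888). The same authors' deposited table gave Dusp5 at 5.78-fold (adjusted p = 0.0322) and Tgfa at 4.34-fold (adjusted p = 0.00207). The authors' deposited tables of wild-type tumor 2, wild-type tumor 3 and knockout tumor 3 against the normal library of the same number list none of the 10, where 1.88%, 1.17% and 0.462% of genes were listed as higher. Each table sets 1 library against 1 library, so its p-values do not cover variation between samples.

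Across libraries the members fell into several patterns. Over the 8 libraries, Pearson's r of log2 CPM was 0.95 between Dusp6 and Spred1 and 0.91 between Dusp4 and Ier3, against 0.0036 between Dusp6 and Spry1 and -0.66 between Phlda1 and Ier3. These are descriptions over libraries that share depth and scaling. Outside the members, the genes most like their mean were Itga2 (r = 0.98), Tnfrsf18 (0.98), Ipcef1 (0.97), Itga3 (0.97) and Farp1 (0.96) among 14716 genes. Itga3, an integrin subunit, was at 93.9 CPM in tumor 1, 40.0 CPM in tumor 2 and 11.5 to 21.0 CPM elsewhere. Itga2, another integrin subunit, was at 5.52 CPM in tumor 1 and 0.351 to 1.45 CPM elsewhere. Most like Dusp6 were Trf, the transferrin gene (r = 0.98), Bsg (0.98) and Magi3 (0.98).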

How the data were processed

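Liver RNA was isolated with a mirVana kit, had an integrity number of at least 7 and went into stranded TruSeq mRNA libraries, per the labels' protocols. Raw counts per gene of all 8 libraries were taken from a table the authors deposited. The deposited FPKM table was made by the authors, with a formula not given in the sources used here, and served for levels between genes and as an alternative. The authors' deposited comparison tables give a fold (ratio), its log2 value and p-values for 1 library against 1 library, listing genes past 2-fold and an unadjusted p of 0.05. Bowtie 0.12.2 and the builds mm8 and mm9 are named in the submitters' processing notes, with no role given, and the counting method and its use of strand are not given in the sources used here. Another 16 columns of values per library were not used, 2 of which match no sample.

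Counts were fitted with edgeR 4.0.16 in R 4.3.3 (TMM, filterByExpr with a minimum count of 10, robust quasi-likelihood), with p-values adjusted by the Benjamini-Hochberg method over all 14726 tested genes at 0.05. A model with 1 mean per group gave the comparisons within and between tumors, and additive terms for genotype and tissue gave the others. All 8 libraries shared 1 estimate of the spread, with a common coefficient of variation of 0.440. SE is the log2 fold change divided by the root of the F statistic. The fit was tested on simulated data. Alternatives were other scaling, no filter, DESeq2 1.42.0, limma 3.58.1, FPKM with pseudocounts of 1 and 0.1, blocks and left-out libraries. The total count sets the precision of low genes such as Etv4.

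The 10 genes and all lists were chosen with earlier results of these data known. Beside the members, the text names, per list, genes past the threshold and the 4 with the highest mean FPKM, the remaining Spry, Spred and PEA3 genes, and the genes with the highest r. Of these, 1 gene is not reported here. Any other gene was picked after its values were seen. Promoters were matched by symbol in the RefSeq GRCm38.p6 table.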

Additional observations from a re-analysis of the deposited data

Results flagged for a closer look

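Spred1 went in opposite directions in the 2 genotypes on TMM-scaled CPM. All 3 wild-type tumors were above both wild-type normal livers, and both tumors labelled knockout were below the 1 normal liver labelled knockout. By library total and by FPKM, wild-type tumor 2 was below wild-type normal 2, so the order in the wild type did not hold on these 2 scales. The fitted difference between the tumor effects, knockout minus wild type, was -0.66 ± 0.37 on the log2 scale (SE, edgeR unadjusted p = 0.125, adjusted p = 0.9999). The knockout side rests on 1 normal library, in which skeletal muscle genes summed to 645 CPM and neutrophil genes to 262 CPM, and their part in the difference was not tested.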

How the results depend on the processing

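No member passed the adjusted threshold of 0.05 under any alternative run, and 41 of 386 alternative values of the members in the 2 contrasts with printed fold changes changed direction, as did 51 of 554 in the other 3 contrasts. The cause of the changes was not tested. For knockout against wild-type tumor, the log2 fold change of Spry1 became 0.11 with limma-voom, 0.043 with log2(FPKM + 1), 0.11 with log2(FPKM + 0.1) and 0.043 without the FPKM filter. Without wild-type tumors 1 and 2 together it became 0.34 for Dusp4, 0.28 for Dusp6 and 0.049 for Etv5. For wild-type tumor against normal liver, Spry4 and Etv5 became -0.018 and -0.092 with library totals, -0.057 and -0.040 with log2(FPKM + 1), with or without the filter, and -0.087 and -0.054 with log2(FPKM + 0.1). Without wild-type tumors 1 and 2, Dusp4 became -0.34, Spry2 -0.011, Spry4 -0.36, Etv5 -0.038, Phlda1 0.17 and Ier3 -0.42, and the median over the members became -0.024.

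Leaving out 1 library at a time gave, for knockout against wild-type tumor, -0.56 to 0.40 for Spry1, -0.42 to 0.70 for Spry4 and -0.25 to 0.14 for Etv5. For wild-type tumor against normal liver it gave -0.74 to 0.23 for Spry1, -0.11 to 0.74 for Spry2, -0.37 to 0.45 for Spry4, -0.18 to 0.47 for Etv5 and -0.45 to 0.30 for Phlda1. For both tissues together the count of genes called ran from 0 to 2. DESeq2 called 4, 15, 5 and 45 genes where edgeR called 0, and limma on log2(FPKM + 1) without a filter called 1 for the difference of tumor effects. The median of the members for that difference, -0.15, became 0.28 with log2(FPKM + 0.1) and 0.28 without wild-type tumors 1 and 2, and ran from -0.65 to 0.24 with 1 library left out. Leaving out the lone knockout normal liver gave no value for it. The filter on FPKM removed Etv4.

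Replicate numbers are shared between groups, but the labels do not state that a number marks 1 animal. The correlation of deviations from group means was 0.16 and 0.20 between the wild-type tumor and normal libraries numbered 2 and 3. Between same-numbered libraries of different genotypes it ran from -0.11 to 0.25. Deviations in a group of 2 libraries mirror each other, so these values cannot decide whether a number marks 1 animal. The main fit did not pair the samples. With a replicate block by number, 0 genes were called in each contrast. Under it Spry1 became 0.48 and Etv5 0.15 for knockout against wild-type tumor, and Spry4 became -0.39 and Etv5 -0.12 for wild-type tumor against normal liver. With a block by genotype and number, the last 2 became -0.36 and -0.11.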

Other observations

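Fgfr2, Fgf1, Igf1 and Igf2 had levels in wild-type tumor 2 outside the range of the other libraries, whereas Fgfr4 at 46.8 CPM and Fgf21 at 6.34 CPM lay within it. Such levels were common in that library, where 30.4% of all tested genes were highest and 29.9% lowest. Fgfr1, Fgfr2 and Lif were picked from the pathway lists after their values were seen. Fgfr2 was at 7.79 CPM there and at 43.7 to 75.9 CPM elsewhere, and Fgf1 was at 11.3 CPM against 46.4 to 142 CPM. Igf1 was at 56.0 CPM against 491 to 867 CPM, while Igf2, the fetal insulin-like growth factor, was at 5758 CPM against 3.74 to 190 CPM. Wild-type tumor 1 did not share these levels, with Fgfr2 at 61.4 CPM, Igf1 at 491 CPM and Igf2 at 13.8 CPM. Fgfr1 was highest in wild-type normal 2 and wild-type tumor 1, at 60.1 and 58.2 CPM, and was at 11.6 to 25.1 CPM elsewhere. Lif, a cytokine gene that responds to ERK, was at 4.56 and 3.67 CPM in wild-type tumors 1 and 2 and at 0.234 to 1.75 CPM elsewhere.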
